A study of Mus musculus with 3 samples.

Results

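Interferon-stimulated genes were followed through the cells of the aorta of mice that carry human apoE isoforms. The set held Isg15, Ifit1, Ifit3, Irf7, Ifi27l2a, Rsad2, Oasl2, Bst2 and Ifitm3, 9 of the 32285 genes in the deposited gene lists. They were taken by symbol, and each symbol was listed once.

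Type I interferons (interferon α and β) bind the receptor made of Ifnar1 and Ifnar2 and signal through the kinases Jak1 and Tyk2 to the nucleus. Target genes respond through the interferon-stimulated response element (ISRE) in their promoters. Many products of these genes block steps of viral replication, and macrophages, endothelial cells and stromal cells of the artery wall can all make them.

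Aortas came from male mice in which the mouse Apoe gene was replaced by human APOE2, APOE3 or APOE4, on a C57BL/6J background. The mice were 12 weeks old when they began a Western diet (fat 42%, cholesterol 0.2%), and they stayed on it for 16 weeks. The APOE2 library pooled the aortic cells of 6 mice, the APOE3 library those of 5 and the APOE4 library those of 7. There was therefore no replicate of any genotype and no diet control, the genotype and the library cannot be told apart, and no test between genotypes was possible. Ratios below compare libraries, and their 95% intervals cover counting error only. In each ratio, as in APOE2 to APOE3, the library named first is divided by the second. A positive log2 ratio thus means a higher level in the library named first. Reads of mouse Apoe, which made up 191, 200 and 181 of 1000000 UMIs in these libraries, could not check the labels.

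The promoters of 8 members were matched in RefSeq on GRCm38.p6, each as 250 bases before and 50 bases from the start on; Ifi27l2a was not matched. The ISRE letters searched were GAAA, any 2 bases and GAAA, or TTTC, any 2 bases and TTTC on the other strand, and overlapping matches were counted. They were found in 6 of the 8 promoters and were not found in these windows of Irf7 and Oasl2. Over all promoters of that length, 3.44% of 32851 held them. The stretches below are shown because they hold the letters that group the 6 promoters. They run from 40 bases before the first match to the last base before the start, or, in Ifitm3, over the matches past the start, and capitals mark the matches.

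Isg15 (chr4:156200819-156200936, minus strand): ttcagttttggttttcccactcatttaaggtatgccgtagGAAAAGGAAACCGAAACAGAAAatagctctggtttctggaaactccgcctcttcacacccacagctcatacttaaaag
Ifit1 (chr19:34640745-34640888, plus strand): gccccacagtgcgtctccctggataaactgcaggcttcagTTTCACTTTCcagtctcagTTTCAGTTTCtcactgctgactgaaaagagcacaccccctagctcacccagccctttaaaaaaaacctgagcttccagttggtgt
Ifit3 (chr19:34583333-34583528, plus strand): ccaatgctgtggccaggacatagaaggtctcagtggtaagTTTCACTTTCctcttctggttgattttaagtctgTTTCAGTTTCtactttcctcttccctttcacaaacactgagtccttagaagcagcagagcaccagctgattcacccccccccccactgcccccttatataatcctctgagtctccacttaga
Rsad2 (chr12:26456453-26456612, minus strand): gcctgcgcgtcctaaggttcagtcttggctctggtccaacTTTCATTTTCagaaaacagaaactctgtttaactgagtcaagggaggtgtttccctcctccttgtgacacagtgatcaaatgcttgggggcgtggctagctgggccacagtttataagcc
Bst2 (chr8:71537473-71537642, minus strand): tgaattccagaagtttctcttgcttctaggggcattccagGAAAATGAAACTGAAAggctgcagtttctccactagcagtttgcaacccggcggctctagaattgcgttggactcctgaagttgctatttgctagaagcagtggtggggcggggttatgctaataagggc
Ifitm3 (chr7:141010716-141010742, minus strand): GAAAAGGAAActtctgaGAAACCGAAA

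Isg15 held 3 overlapping matches and Bst2 held 2 overlapping ones, at -78 and -130 bases from the start for the first. Ifit1, Ifit3 and Ifitm3 held 2 separate matches each, with the first at -104, -156 and 3, and Rsad2 held 1, at -120. The letters of the interferon γ activation site, TTC, any 3 bases and GAA, which read the same on both strands, was found in 2 of the 8, Bst2 and Ifitm3, against 8.30% of all promoters. Of other pathway genes with a promoter sequence, 10 of 22 antiviral effectors and 8 of 13 interferon γ responsive genes held the ISRE letters, while 0 of 5 receptor genes did. A match describes the letters only. Ifit1 and Ifit3 lie on chromosome 19 (34640871 to 34650009 and 34583531 to 34588731, plus strand), and Irf7 and Ifitm3 lie on chromosome 7 (141262706 to 141266481 and 141009586 to 141010770, minus strand), in GRCm38. Rsad2 and Ifi27l2a lie on chromosome 12 (26442746 to 26456452 and 103442167 to 103443680, minus strand), Isg15 on chromosome 4 (156199424 to 156200818, minus strand), Bst2 on chromosome 8 (71534255 to 71537456, minus strand) and Oasl2 on chromosome 5 (114896936 to 114912234, plus strand).

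Cells with at least 200 detected genes and under 20% mitochondrial UMIs (unique molecular identifiers, 1 for each captured RNA molecule) were kept, 11772 in APOE2, 6737 in APOE3 and 8248 in APOE4. More cells were kept than the study analysed. Their UMIs totalled 168310501, 125105151 and 124926887, and the median cell held 12047, 17618 and 13521.5 UMIs. Between libraries, 26 (APOE2 and APOE3), 27 (APOE2 and APOE4) and 14 (APOE3 and APOE4) kept barcodes were shared. Cells were clustered without interferon genes among the features and put into classes by marker genes. The smooth muscle class held 9499, 5803 and 6631 cells, the fibroblast-like class 1437, 737 and 1037, the macrophage-like class 338, 94 and 125, and the endothelial-like class 146, 35 and 40. Neutrophil-like (127, 33 and 14), T lymphocyte-like (122, 20 and 103), B lymphocyte-like (35, 11 and 271) and erythroid-like cells (68, 4 and 27) made up smaller classes. The smooth muscle class includes clusters that kept smooth muscle markers but were not named, because their depth was low or markers of another type were raised in them. Without these it held 6477, 3531 and 4894 cells, called the named smooth muscle-like clusters below. Doublet calling did not work, with 1, 0 and 2 cells called.

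Levels are UMIs per 1000000 UMIs of the class (CPM), given as the mean over the libraries with at least 10 cells of the class and, in parentheses, the lowest and the highest library. Classes, not genes, are compared, and the ranges come from 3 libraries or, in erythroid-like cells, from 2. Isg15 encodes a ubiquitin-like protein that is joined to other proteins. Its mean levels in CPM were 514 (230.0 to 797) in erythroid-like cells, 199 (188 to 221) in macrophage-like cells, 93.0 (40.7 to 167) in neutrophil-like cells, 71.5 (62.2 to 86.8) in endothelial-like cells, 63.7 (53.7 to 74.9) in T lymphocyte-like cells, 54.8 (52.8 to 57.7) in fibroblast-like cells, 30.4 (12.1 to 64.1) in B lymphocyte-like cells and 11.9 (10.2 to 14.6) in smooth muscle. For Isg15 the ranges of neighbours did not overlap between erythroid-like cells and macrophage-like cells, or between macrophage-like cells and neutrophil-like cells, and the other neighbours overlapped. The high mean in erythroid-like cells came from the APOE2 library, since in APOE4 the erythroid-like level was close to that of macrophage-like cells, and the lowest mean was that of smooth muscle.

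Ifit1 and Ifit3 encode tetratricopeptide proteins that act on viral RNA. Mean levels of Ifit1 in CPM were 55.7 (48.6 to 62.3) in macrophage-like cells, 29.5 (0 to 54.5) in neutrophil-like cells, 20.9 (13.3 to 27.5) in endothelial-like cells, 16.4 (11.8 to 19.9) in fibroblast-like cells, 6.11 (0 to 10.51) in T lymphocyte-like cells, 2.03 (0.932 to 2.75) in smooth muscle, 1.17 (0 to 2.34) in erythroid-like cells and 0.262 (0 to 0.787) in B lymphocyte-like cells. For Ifit1 the ranges of neighbours did not overlap between fibroblast-like cells and T lymphocyte-like cells, and the other neighbours overlapped. For Ifit3 they were 31.9 (26.8 to 41.7) in fibroblast-like cells, 27.2 (11.9 to 40.3) in macrophage-like cells, 24.9 (17.6 to 39.2) in endothelial-like cells, 14.2 (0 to 25.7) in T lymphocyte-like cells, 13.05 (0 to 32.1) in B lymphocyte-like cells, 6.96 (0 to 14.1) in neutrophil-like cells, 6.02 (2.97 to 9.12) in smooth muscle and 1.17 (0 to 2.34) in erythroid-like cells. For Ifit3 the ranges of neighbours did not overlap between smooth muscle and erythroid-like cells, and the other neighbours overlapped. The erythroid-like values of Ifit3 lie below the level of 3 counts there, 7.01 CPM in APOE2 and 15.3 in APOE4. A lower level than in smooth muscle was therefore not shown. Reads of Ifit3 and Ifit3b, and of Ifit1 and its relatives, can be split between near-identical genes, so these levels are uncertain. Oasl2, a relative of the 2′-5′ oligoadenylate synthetases, had mean levels in CPM of 87.3 (47.3 to 119.6) in neutrophil-like cells, 44.3 (33 to 60.0) in macrophage-like cells, 18.1 (13.3 to 21.8) in endothelial-like cells, 15.2 (12.9 to 17.1) in fibroblast-like cells, 9.62 (0 to 24.9) in B lymphocyte-like cells, 4.48 (1.17 to 7.80) in T lymphocyte-like cells, 0.844 (0.342 to 1.57) in smooth muscle and 0 (both libraries) in erythroid-like cells. For Oasl2 the ranges of neighbours did not overlap between macrophage-like cells and endothelial-like cells, or between smooth muscle and erythroid-like cells, and the other neighbours overlapped. The erythroid-like 0 means that no Oasl2 UMI was found. Its limits at 3 counts, 7.01 CPM in APOE2 and 15.3 in APOE4, lie above the smooth muscle range, so a lower level was not shown. Rsad2 encodes viperin, an enzyme that makes a chain-terminating nucleotide. Its mean levels were 544 (419 to 669) in erythroid-like cells, 37.9 (23.7 to 49.3) in neutrophil-like cells, 31.8 (16.1 to 56.4) in macrophage-like cells, 29.2 (4.44 to 47.9) in endothelial-like cells, 5.27 (0 to 14.2) in B lymphocyte-like cells, 3.44 (0 to 5.84) in T lymphocyte-like cells, 2.70 (1.84 to 3.25) in fibroblast-like cells and 0.933 (0.686 to 1.29) in smooth muscle. For Rsad2 the ranges of neighbours did not overlap between erythroid-like cells and neutrophil-like cells, or between fibroblast-like cells and smooth muscle, and the other neighbours overlapped. Rsad2 and Isg15 were the members with their highest class in erythroid-like cells, where no Oasl2 UMI was found, which allows up to 7.01 CPM in APOE2 and 15.3 in APOE4 at 3 counts.

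Bst2 (tetherin) holds budding virus particles at the cell surface, and Ifitm3 blocks the entry of viruses at endosomes. Bst2 had mean levels in CPM of 304 (256 to 328) in macrophage-like cells, 259 (204 to 306) in endothelial-like cells, 176 (167 to 186) in fibroblast-like cells, 86.9 (49.6 to 114) in B lymphocyte-like cells, 70.1 (39.0 to 86.1) in T lymphocyte-like cells, 64.2 (34.0 to 118) in neutrophil-like cells, 54.2 (44.6 to 68.6) in smooth muscle and 3.72 (2.34 to 5.11) in erythroid-like cells. For Bst2 the ranges of neighbours did not overlap between endothelial-like cells and fibroblast-like cells, or between fibroblast-like cells and B lymphocyte-like cells, or between smooth muscle and erythroid-like cells, and the other neighbours overlapped. For Ifitm3 they were 1626 (904 to 2300.3) in endothelial-like cells, 1564 (1369.8 to 1903) in fibroblast-like cells, 1009.8 (874 to 1103) in macrophage-like cells, 585 (359.9 to 968) in neutrophil-like cells, 282 (216 to 395) in smooth muscle, 127 (29.9 to 278) in B lymphocyte-like cells, 66.2 (40.3 to 85.8) in T lymphocyte-like cells and 39.7 (0 to 79.5) in erythroid-like cells. For Ifitm3 the ranges of neighbours did not overlap between fibroblast-like cells and macrophage-like cells, and the other neighbours overlapped. Reads of Ifitm3 may be shared with Ifitm1 and Ifitm2. Both membrane proteins were high in endothelial-like and fibroblast-like cells as well as in macrophage-like cells. Irf7 is the transcription factor that amplifies type I interferon production, with mean levels of 52.3 (28.2 to 94.7) in neutrophil-like cells, 36.2 (11.02 to 85.5) in B lymphocyte-like cells, 34.4 (29.4 to 41.6) in macrophage-like cells, 18.8 (13.1 to 25.4) in endothelial-like cells, 18.4 (13.5 to 22.3) in fibroblast-like cells, 16.7 (7.80 to 23.5) in T lymphocyte-like cells, 8.18 (0 to 16.4) in erythroid-like cells and 2.74 (2.01 to 4.03) in smooth muscle. For Irf7 the ranges of neighbours did not overlap between macrophage-like cells and endothelial-like cells, and the other neighbours overlapped. Ifi27l2a encodes a small hydrophobic protein of the Ifi27 family. Its mean levels were 1315 (1109 to 1599) in macrophage-like cells, 407 (308 to 591) in neutrophil-like cells, 396 (266 to 546) in B lymphocyte-like cells, 366 (286 to 475) in fibroblast-like cells, 93.5 (58.6 to 126) in endothelial-like cells, 86.6 (31.2 to 143) in T lymphocyte-like cells, 33.1 (22.0 to 53.5) in smooth muscle and 0 (both libraries) in erythroid-like cells. For Ifi27l2a the ranges of neighbours did not overlap between macrophage-like cells and neutrophil-like cells, or between fibroblast-like cells and endothelial-like cells, or between smooth muscle and erythroid-like cells, and the other neighbours overlapped. Its reads may be shared with Ifi27l2b.

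**Figure D1:**
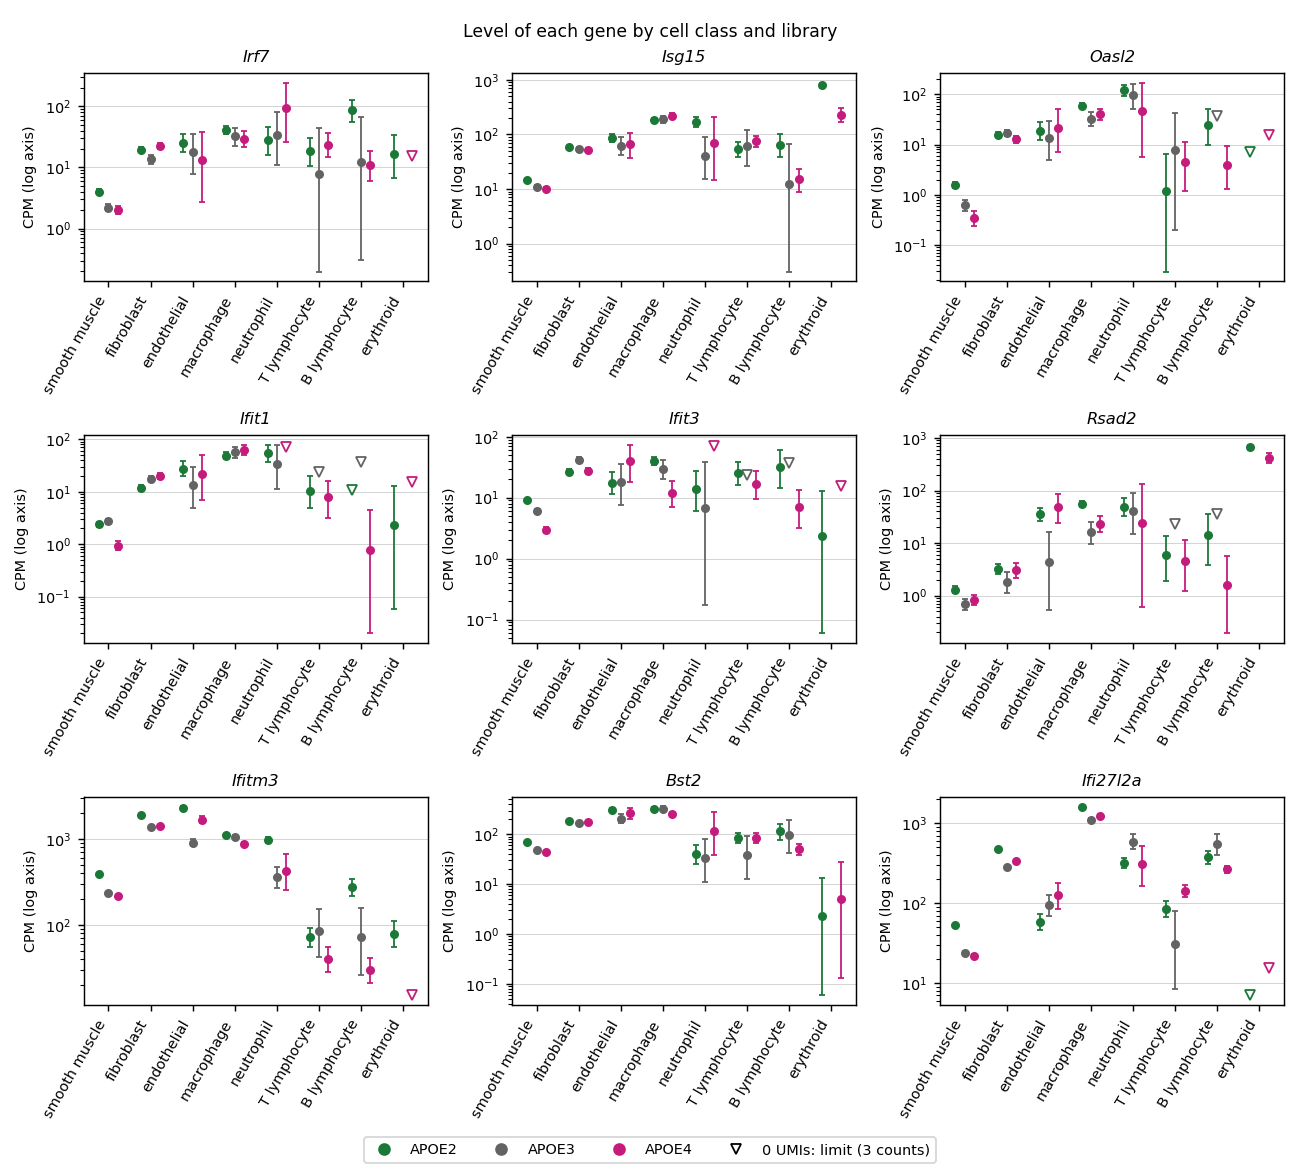
Level of each member in CPM (log axis) by cell class, with a point for each library, 95% Poisson intervals as bars and open triangles at the limit of 3 counts where no UMI was found. Macrophage-like cells held the highest mean level of Ifit1, Ifi27l2a and Bst2, and erythroid-like cells that of Isg15 and Rsad2.

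Most UMIs of the libraries came from smooth muscle (82.3%, 89.7% and 86.7% of all UMIs in APOE2, APOE3 and APOE4). The members came from other cells more often. Smooth muscle held 23.8%, 22.0% and 13.6% of the Oasl2 UMIs, 29.7%, 37.2% and 26.8% of the Ifi27l2a UMIs and 43.0%, 59.3% and 49.5% of the Isg15 UMIs. For Bst2 and Ifitm3 it held 61.1%, 70.6% and 63.6% and 51.9%, 61.5% and 54.4%. Erythroid-like cells held 33.4%, 6.11% and 31.5% of the Rsad2 UMIs but 0.254%, 0.0292% and 0.157% of all UMIs. In these cells Rsad2 was at 669 CPM in APOE2 (286 UMIs) and 419 in APOE4 (82 UMIs), and 59.1% and 48.1% of them had an Rsad2 UMI when each cell was thinned to 2000 UMIs.

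**Figure D2:**
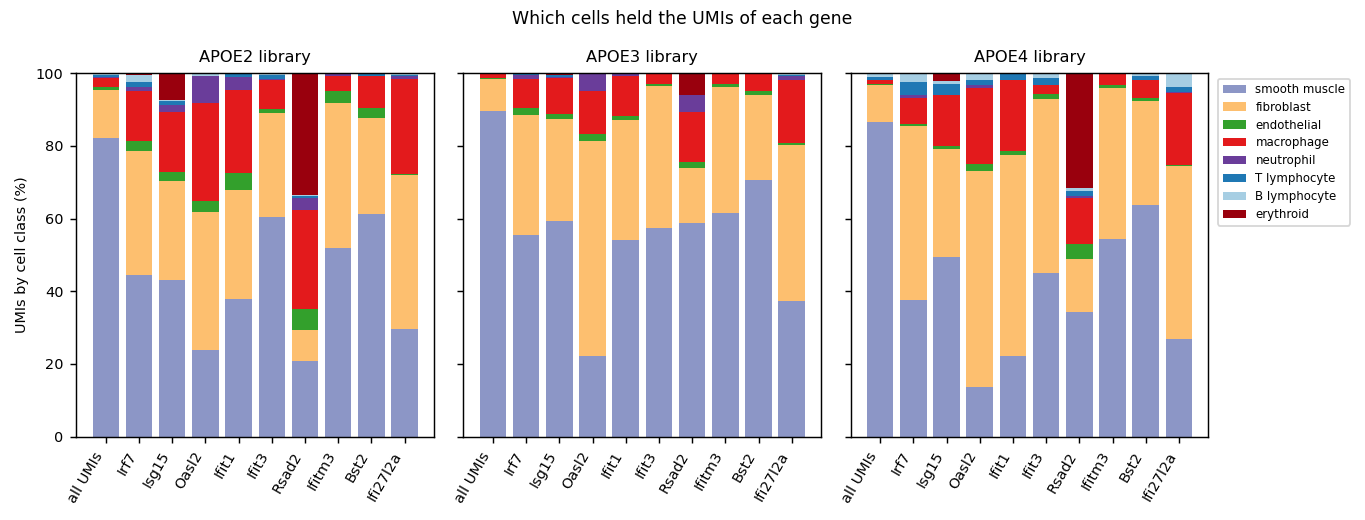
Share of UMIs (percent, stacked to 100) held by each cell class, for all UMIs and for each of the 9 genes in the 3 libraries. Smooth muscle held 82.3%, 89.7% and 86.7% of all UMIs in APOE2, APOE3 and APOE4, and smaller shares of the members.

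The smooth muscle class was formed from clusters that kept markers of the contractile cells of the media. Most members were higher there in the APOE2 library than in APOE3. Of the 9 genes, 8 had an interval above 0, with a median log2 ratio of 0.74, against 0.05 over the 15558 genes with at least 50 UMIs in these libraries together. Of these 15558 genes, 92.0% lay below the member median. The share of them with an interval above 0 was not counted. At least 2-fold higher were 2 of 9, Oasl2 and Ifi27l2a, where 5.01% of those genes were. Oasl2 stood at 1.57 CPM for APOE2 (1.37 to 1.80), 0.615 for APOE3 (0.478 to 0.778) and 0.342 for APOE4 (0.241 to 0.471). APOE2 stood above APOE3 by a log2 ratio of 1.36 (0.96 to 1.77). The APOE2 library was the high one for Oasl2 and APOE4 the low one. Ifi27l2a stood at 53.5 CPM for APOE2 (52.3 to 54.8), 23.9 for APOE3 (23.02 to 24.8) and 22.0 for APOE4 (21.1 to 22.9), with a log2 ratio of 1.16 (1.10 to 1.23). Ifitm3 stood at 395 CPM for APOE2 (391 to 398), 236 for APOE3 (233 to 238) and 216 for APOE4 (213 to 218) and had a log2 ratio of 0.74 (0.72 to 0.76). For both genes APOE2 was high, and APOE3 and APOE4 were near each other. Irf7 was at 4.03 CPM for APOE2, 2.19 for APOE3 and 2.01 for APOE4 (log2 ratio 0.88, interval 0.66 to 1.10) and Bst2 at 68.6 CPM for APOE2, 49.2 for APOE3 and 44.6 for APOE4 (0.48, interval 0.43 to 0.53). Isg15 was at 14.6 CPM for APOE2, 11.1 for APOE3 and 10.2 for APOE4 (0.40, interval 0.30 to 0.50). APOE2 was the high library for these 3 genes too. In the named smooth muscle-like clusters the log2 ratios were 0.98 for Oasl2, 1.18 for Ifi27l2a, 0.59 for Ifitm3, 0.67 for Irf7, 0.37 for Bst2 and 0.12 for Isg15.

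Markers of other cells moved with this contrast. In smooth muscle the summed level of the macrophage markers was 96.2, 23.3 and 26.8 CPM in APOE2, APOE3 and APOE4, that of the neutrophil markers 69.2, 1.66 and 0.960 CPM and that of the erythroid markers 662, 244 and 618 CPM. The lists were detected in full in APOE2 (10 macrophage, 8 neutrophil and 6 erythroid markers), and 7 of the 8 neutrophil markers were detected in APOE3 and in APOE4. Among the 5356, 4343 and 3826 smooth muscle cells with no UMI of these markers, the log2 ratio of APOE2 over APOE3 came to 1.06 for Oasl2, 1.24 for Ifi27l2a, 0.60 for Ifitm3, 0.84 for Irf7, 0.37 for Bst2, 0.33 for Isg15, -0.33 for Ifit1 and 0.68 for Ifit3. Rsad2 moved further: it stood at 1.29 CPM for APOE2 (1.11 to 1.50), 0.686 for APOE3 (0.541 to 0.857) and 0.822 for APOE4 (0.660 to 1.011) and its log2 ratio went from 0.91 to 0.25 in those cells, and that of APOE4 to APOE3 from 0.26 to -1.28. Within clusters, APOE2 was above APOE3 for Ifitm3 and for Bst2 in 14 of the 16 clusters of the class with at least 30 cells in both libraries (R21 had fewer and was left out), for Irf7 in 12 and for Ifi27l2a in 8. The Ifi27l2a ratio thus went in both directions, with an interval above 0 in 7 clusters and below 0 in 7. It ran from -2.47 in R18 to 3.23 in R12. For Oasl2, APOE2 was above APOE3 in 11 clusters, with an interval above 0 in 2 and below 0 in 0. With each cell weighted equally the Ifi27l2a ratio of the class was 0.44.

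**Figure D3:**
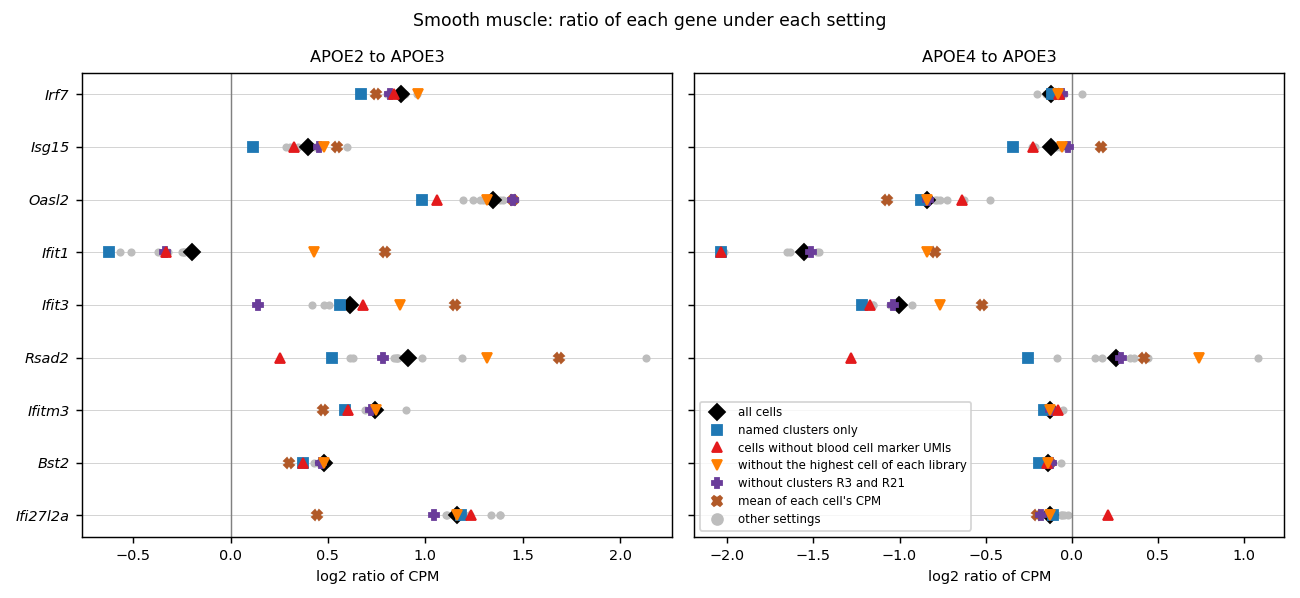
Log2 ratio of each member between libraries in the smooth muscle class under each setting, with black diamonds for all cells, coloured points for named settings and grey points for the others. Oasl2 from APOE2 to APOE3 lay between 0.98 and 1.46, Ifitm3 between 0.48 and 0.90, and Ifit1 between -0.62 and 0.79, on both sides of 0.

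Single cells and single clusters weighed on the Ifit genes in smooth muscle. Ifit1 was at 2.40 CPM for APOE2 (2.15 to 2.67), 2.75 for APOE3 (2.45 to 3.08) and 0.932 for APOE4 (0.759 to 1.13), from 332, 309 and 101 UMIs. A single APOE3 cell of 45803 UMIs held 121 of its 309 Ifit1 UMIs and 145 of the 669 Ifit3 UMIs. With the cell that held most interferon UMIs left out of each library, the log2 ratio of Ifit1 from APOE2 to APOE3 went from -0.20 (-0.43 to 0.03) to 0.43 (0.17 to 0.70). Ifit3 was at 9.12 CPM for APOE2 (8.63 to 9.64), 5.96 for APOE3 (5.52 to 6.43) and 2.97 for APOE4 (2.66 to 3.32), with log2 ratios of 0.61 (0.48 to 0.75) with all cells and 0.87 without those cells. Without the clusters R3 and R21, in which 1692 of 2208 and 170 of 178 cells were from APOE2, the Ifit3 ratio was 0.14. The APOE2 cells of R3 held 486 Ifit3 UMIs (21.3 CPM), while Ifit3 was at 3.28 CPM in APOE3 and 3.13 CPM in APOE4 cells of that cluster. In the named smooth muscle-like clusters the log2 ratios were -0.62 for Ifit1, 0.56 for Ifit3 and 0.52 for Rsad2. With each cell weighted equally the Ifit1 ratio was 0.79. Its sign thus turned on 1 cell and on the weighting of cells. The Ifit3 ratio without R3 and R21 and the ratios in the named clusters still include that cell, which lay in R0.

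The APOE4 library was low for the Ifit genes. Of 9 members, 2 were at least 2-fold below APOE3, against 0.754% of genes, and 0 were as far above, against 3.62%. The median log2 ratio was -0.13, against -0.08 over all genes tested. An interval below 0 was found for 7 of 9 members, and the share of all genes with such an interval was not counted. The log2 ratio of APOE4 to APOE3 was -1.56 (-1.90 to -1.23) for Ifit1 and -1.003 (-1.20 to -0.81) for Ifit3. Without the cells with most interferon UMIs these were -0.85 (-1.21 to -0.49) and -0.77 (-0.98 to -0.56), and neither was past 2-fold. Oasl2 had a log2 ratio of -0.85 (-1.46 to -0.25), and the other 6 members lay between -0.14 and 0.26. Against APOE2, all 9 members were lower in APOE4, with a median of -1.0 where all genes had -0.11, and 4 of 9 called lower by at least 2-fold, beside 5.42% of genes (3.5% of genes were as far above, and 0 members). The log2 ratios were -2.20 (-2.75 to -1.70) for Oasl2, -1.62 (-1.80 to -1.44) for Ifit3, -1.36 (-1.70 to -1.04) for Ifit1 and -1.29 (-1.35 to -1.22) for Ifi27l2a. In the named smooth muscle-like clusters, APOE4 to APOE3 was -2.04 for Ifit1, -1.22 for Ifit3 and -0.87 for Oasl2. These values include the APOE3 cell of 45803 UMIs, which lay in R0, a named cluster. These contrasts share libraries, so they are not separate evidence.

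**Figure D4:**
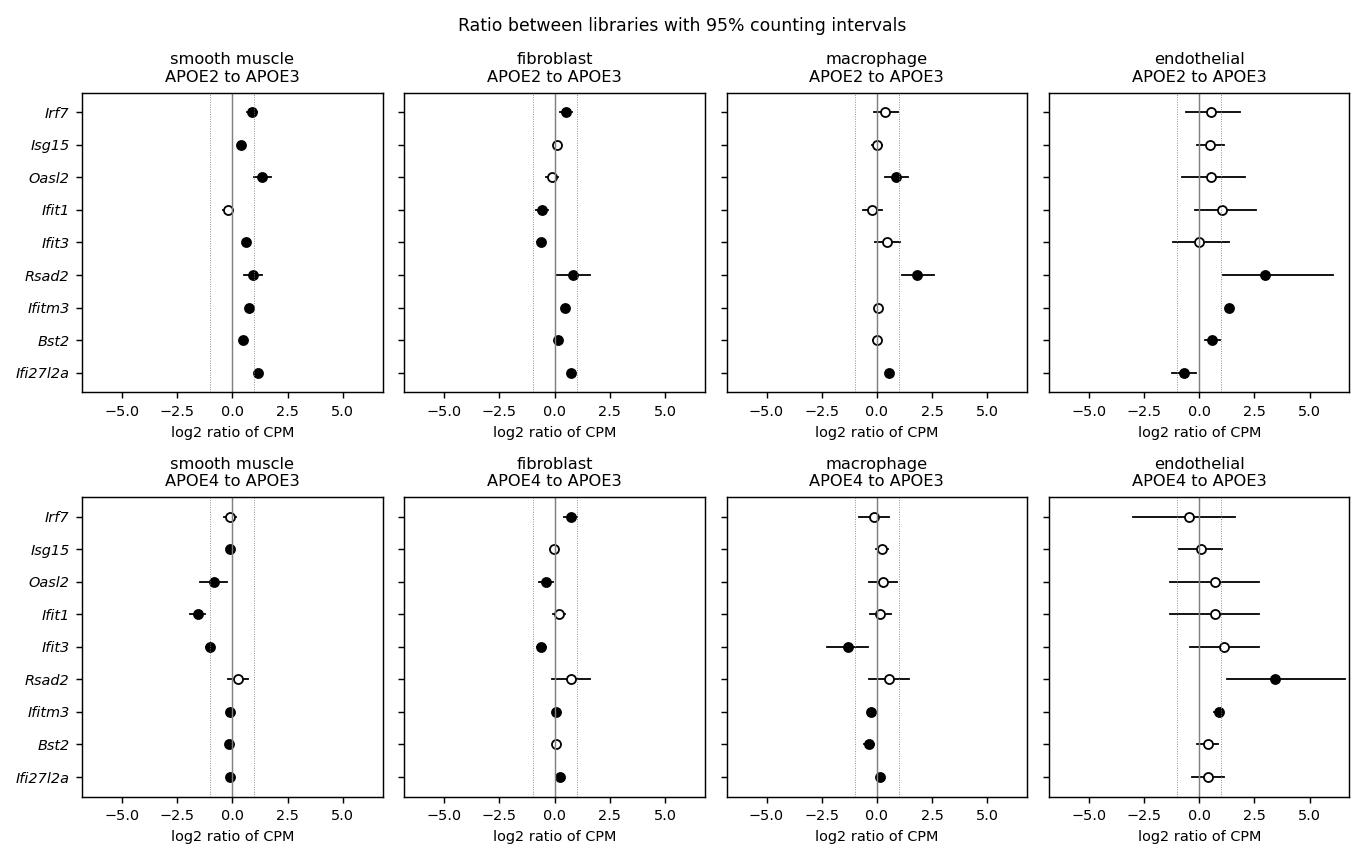
Log2 ratio of each member between libraries (APOE2 to APOE3 above, APOE4 to APOE3 below) in 4 classes, with 95% counting intervals, cut at ±6.6. Filled points have an interval that excludes 0 and dotted lines mark 2-fold. In smooth muscle, 8 of 9 members had an interval above 0 in APOE2, and 7 of 9 had an interval below 0 in APOE4. The share of all genes with such intervals was not counted. Ifit1, Ifit3 and Oasl2 were furthest below 0 in APOE4.

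Fibroblast-like cells, named from markers of the matrix-producing cells of the adventitia, showed no member past 2-fold in any contrast when pooled. The class includes cluster R15, in which 3 fibroblast markers were raised, against 10 in R5 and 9 in R8. From APOE2 to APOE3 the median log2 ratio was 0.15 against -0.04 over all genes tested, where 2.52% were 2-fold higher and 2.19% lower. From APOE4 to APOE3 it was 0.06, with 2.02% higher and 1.38% lower, and from APOE4 to APOE2 -0.09, with 2.74% and 3.0%. The members moved in both directions. Ifi27l2a was at 475 CPM for APOE2 (466 to 484), 286 for APOE3 (276 to 296) and 337 for APOE4 (327 to 347), with a log2 ratio of 0.73 (0.67 to 0.79) from APOE2 to APOE3. Ifitm3 was at 1903 CPM for APOE2, 1369.8 for APOE3 and 1419 for APOE4, with 0.47 (0.45 to 0.50). Ifit3 went the other way, at 26.8 CPM for APOE2 (24.7 to 29.1), 41.7 for APOE3 (37.9 to 45.7) and 27.3 for APOE4 (24.5 to 30.4), with -0.64 (-0.81 to -0.46) from APOE2 to APOE3 and -0.61 (-0.81 to -0.40) from APOE4 to APOE3. A single APOE3 cell held 100 of the 284 Ifit3 UMIs of that library in R5. Over all settings the 2 Ifit3 ratios lay between -0.68 and -0.25 and between -0.75 and -0.31.

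The pooled fibroblast values hid opposite differences between clusters, a comparison chosen after the values were seen. Cluster R5 was led by Fmod, Inmt and Tgfbi and held 544, 412 and 624 cells of APOE2, APOE3 and APOE4, R8 was led by Opcml, Sdk1 and Pla1a and held 575, 211 and 283, and R15 was led by Spp1, Anxa8 and Lcn2 and held 318, 114 and 130. In R5, Isg15 was at 109.6 CPM for APOE2, 55.5 for APOE3 and 42.8 for APOE4, and in R8 at 42.3 CPM for APOE2, 69.4 for APOE3 and 80.5 for APOE4. The log2 ratio of APOE4 to APOE2 was -1.36 (-1.57 to -1.14) in R5 and 0.93 (0.70 to 1.16) in R8. APOE2 was the high library in R5 and the low one in R8. Ifit1 was at 19.5 CPM for APOE2, 21.1 for APOE3 and 7.91 for APOE4 in R5 and at 14.7 CPM for APOE2, 19.6 for APOE3 and 51.6 for APOE4 in R8, with log2 ratios of -1.30 (-1.82 to -0.80) and 1.82 (1.48 to 2.16). Ifit3 stood in R5 at 63.7 CPM for APOE2, 59.9 for APOE3 and 27.2 for APOE4, and in R8 at 20.7 CPM for APOE2, 42.0 for APOE3 and 40.7 for APOE4, with -1.23 (-1.50 to -0.96) and 0.98 (0.65 to 1.31). Its high cluster was R5 in APOE2 and R8 in APOE4. Irf7 stood in R5 at 20.2 CPM for APOE2, 8.86 for APOE3 and 9.55 for APOE4, and in R8 at 28.8 CPM for APOE2, 29.3 for APOE3 and 56.5 for APOE4, with -1.08 (-1.56 to -0.61) and 0.97 (0.69 to 1.25). These 4 genes were lower in APOE4 than in APOE2 in R5 and higher in R8, with intervals that exclude 0 on both sides. All 9 members were below 0 in R5, while in R8 Ifi27l2a (-0.21, interval -0.27 to -0.15) and Ifitm3 (-0.55, interval -0.59 to -0.50) were also below 0. No median or share over all genes was taken within R5, R8 or R15. Whether genes in general differed in the same way within these clusters was not tested. In R15, Isg15 was at 38.2 CPM for APOE2, 36.2 for APOE3 and 38.3 for APOE4, without a difference beyond counting error. Other members differed there: from APOE2 to APOE3 Ifitm3 had 1.21 (1.13 to 1.28), Irf7 1.03 (0.23 to 1.93) and Ifi27l2a 0.92 (0.72 to 1.11), while Ifit1 had -1.18 (-1.92 to -0.42) and Ifit3 -0.62 (-1.20 to -0.03). From APOE4 to APOE2 Ifitm3 had -1.23 (-1.31 to -1.15). The highest cell held 89 of the 614 Isg15 UMIs of APOE2 in R5, 27 of 295 of APOE4 in R8 and 34 of 189 Ifit1 UMIs of APOE4 in R8. In R5 it held 81 of 357 Ifit3 UMIs of APOE2, and in APOE3 100 of 284 of Ifit3 and 31 of 100 of Ifit1. Without the highest cells, the ratios of APOE4 to APOE2 in R5 and R8 were -1.22 and 0.86 for Isg15 and -1.47 and 1.66 for Ifit1. They were -1.03 and 0.81 for Ifit3 and -1.002 and 0.89 for Irf7. With 1 library for each genotype, no test of the difference between clusters across mice was possible.

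**Figure D5:**
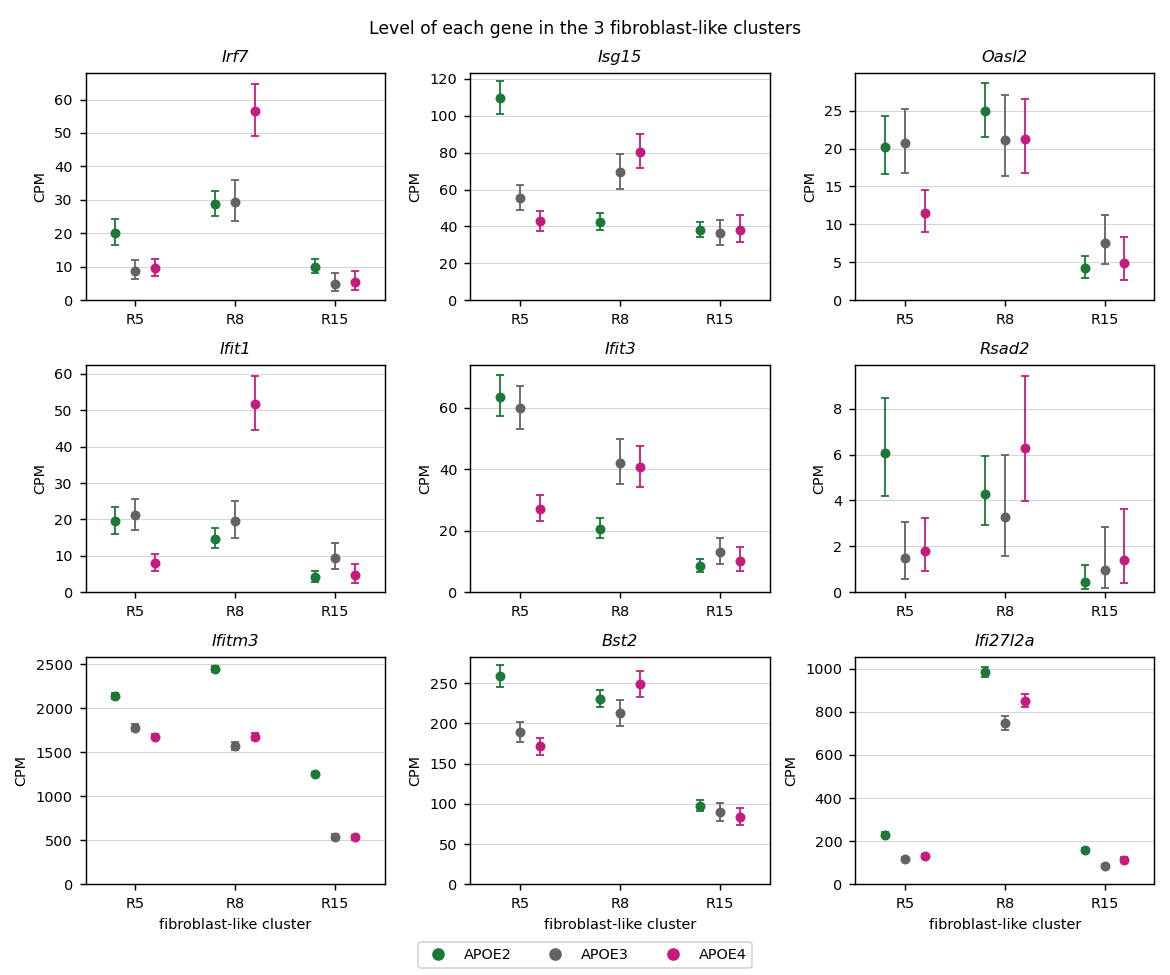
Level of each member in CPM (linear axis from 0) within R5, R8 and R15, clusters of fibroblast-like cells, for the 3 libraries, with 95% Poisson intervals. Isg15 in R5 stood at 109.6 CPM for APOE2, 55.5 for APOE3 and 42.8 for APOE4, and in R8 at 42.3 CPM for APOE2, 69.4 for APOE3 and 80.5 for APOE4.

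In macrophage-like cells, which had the highest levels of 3 members, the counts were smaller. The median log2 ratio was 0.36 from APOE2 to APOE3, with 1 of 9 called higher beside 3.2% of genes and 0 lower beside 2.78%, 0.15 from APOE4 to APOE3 and -0.37 from APOE4 to APOE2. Rsad2 was at 56.4 CPM for APOE2 (49.4 to 64.1), 16.1 for APOE3 (9.52 to 25.4) and 23.1 for APOE4 (15.9 to 32.4), from 232, 18 and 33 UMIs, with a log2 ratio of 1.81 (1.12 to 2.59). Ifi27l2a was at 1599 CPM for APOE2, 1109 for APOE3 and 1236 for APOE4, with 0.53 (0.44 to 0.62). Both were highest in APOE2, as they were in the pooled smooth muscle class. In that class the Rsad2 ratio fell to 0.25 in cells without macrophage, neutrophil or erythroid marker UMIs. The Ifi27l2a ratio there went in both directions between clusters. Ifit3 was at 40.3 CPM for APOE2 (34.4 to 47.0), 29.4 for APOE3 (20.3 to 41.3) and 11.9 for APOE4 (6.93 to 19.1), from 166, 33 and 17 UMIs, with -1.31 (-2.24 to -0.42) from APOE4 to APOE3 (1 of 9 lower, 1.36% of genes) and -1.76 (-2.58 to -1.04) from APOE4 to APOE2, where Rsad2 was lower too (2 of 9, 2.67% of genes). In the other direction, 0 of 9 were called in either contrast, beside 3.21% and 4.04% of genes. A single APOE3 cell held 15 of the 33 Ifit3 UMIs, and without the cell with most interferon UMIs of each library the Ifit3 ratio from APOE4 to APOE3 was -0.55 (-1.61 to 0.51), no longer past 2-fold, while that from APOE4 to APOE2 was -1.48 (-2.33 to -0.72).

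Endothelial-like cells numbered 35 and 40 in APOE3 and APOE4, and few members had 50 UMIs. From APOE2 to APOE3, 2 of 5 such members were called higher, Rsad2 and Ifitm3, beside 8.53% of genes, and 0 lower, beside 7.31%. Rsad2 had 50 UMIs in APOE2 and 2 in APOE3, a log2 ratio of 2.99 (1.06 to 6.08). In APOE2, 1 cell held 15 of these 50 UMIs. APOE3 was the low library for Rsad2, at 4.44 CPM, and APOE4 the highest, at 47.9 CPM. From APOE4 to APOE3 its log2 ratio lay between 3.17 and 4.09 over the settings, with too few UMIs to be called. Ifitm3 was at 2300.3 CPM for APOE2 (2222 to 2381), 904 for APOE3 (818 to 996) and 1674 for APOE4 (1511 to 1849.9), with 1.35 (1.20 to 1.50). Ifi27l2a went the other way, with -0.70 (-1.25 to -0.14). From APOE4 to APOE2 its log2 ratio was 1.11 (0.45 to 1.74), the 1 of 5 members called (without the cell with most interferon UMIs of each library, 0.95), beside 3.86% of genes higher and 6.57% lower. From APOE4 to APOE3, 0 of 3 members were called, beside 5.53% higher and 8.55% lower. Ifi27l2a was lower in APOE2 than in APOE3 in endothelial-like and neutrophil-like cells and higher in smooth muscle, fibroblast-like and macrophage-like cells, a difference between classes that was not tested. In neutrophil-like cells, Isg15 had a log2 ratio of 2.04 (0.86 to 3.52) and Ifitm3 of 1.43 (1.02 to 1.86) from APOE2 to APOE3, 2 of 4 members where 9.83% of genes were 2-fold higher and 12.9% lower, and Ifi27l2a had -0.88 (-1.25 to -0.49). In B lymphocyte-like cells, 1 APOE2 cell held 16 of the 18 Isg15 UMIs, and without the cell with most interferon UMIs of each library the log2 ratio of APOE4 to APOE2 was 0.32 (-1.85 to 3.52). Ifitm3 (-3.22, interval -3.81 to -2.64) and Bst2 (-1.20, interval -1.84 to -0.54) were lower in APOE4 there, 2 of 3 members beside 6.55% of genes, and 0 were higher, beside 10.3%. The same cell held 13 Bst2 UMIs, and without the cell with most interferon UMIs of each library Bst2 had -0.56 (-1.32 to 0.26) and Ifitm3 -3.19 (-3.80 to -2.59). In T lymphocyte-like cells, Ifi27l2a had 0.75 (0.32 to 1.18) and Ifitm3 -0.85 (-1.48 to -0.23) from APOE4 to APOE2, with 0 of 4 members past 2-fold, beside 2.32% of genes higher and 3.42% lower.

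The members were spread unevenly over cells. Cells with at least 3 UMIs over Isg15, Ifit1, Ifit3, Irf7, Rsad2 and Oasl2 after thinning to 2000 UMIs were counted as interferon-high. In smooth muscle they were 0.347% (30 of 8648 cells, 95% interval 0.234 to 0.495) in APOE2, 0.236% (13 of 5519 cells, 95% interval 0.125 to 0.402) in APOE3 and 0.160% (10 of 6259 cells, 95% interval 0.0766 to 0.294) in APOE4, and without thinning 3.68%, 1.90% and 1.39%. The log2 ratio of shares was 0.56 (-0.42 to 1.62) from APOE2 to APOE3 and -1.12 (-2.32 to -0.05) from APOE4 to APOE2. APOE2 and APOE3 could not be told apart at this depth, and APOE4 was below APOE2. Of these cells, 10, 4 and 6 in APOE2, APOE3 and APOE4 lay in R10, an unnamed cluster of low depth. It had 8 fibroblast markers raised, and these cells were 2.69%, 2.52% and 3.49% of it. The part of R10 in the smooth muscle shares, and in the Bst2 and Ifitm3 levels below, was not tested. In fibroblast-like cells the shares were 1.99%, 2.04% and 2.51% (17.5%, 15.6% and 12.0% without thinning, in another order), and in macrophage-like cells 9.55%, 9.57% and 8.13%. Erythroid-like cells, high in Isg15 and Rsad2, had 42.4% (28 of 66 cells, 95% interval 30.3 to 55.2) in APOE2 and 14.8% (4 of 27 cells, 95% interval 4.19 to 33.7) in APOE4. The 32 such erythroid-like cells held no UMI of Ifit3, Oasl2 or Ifi27l2a at this depth, with Ifitm3 at 15.6 CPM against 23.1 in the other 65. By fibroblast-like cluster, R5 held 2.94%, 1.70% and 1.44% (16, 7 and 9 cells) and R8 1.75%, 2.84% and 5.30% (10, 6 and 15 cells). The orders were those of Isg15 in these clusters, but Isg15 is among the genes counted, so this is not separate evidence. The 53 interferon-high smooth muscle cells also held more of members that did not define them, with Bst2 at 962 CPM against 53.4 in the other cells and Ifitm3 at 3802 against 294. Of these cells, 11.3% were among the highest doublet scores, against 6.85% of the others; the part of doublets in this was not tested. Among smooth muscle cells of 5000 UMIs in APOE2, 56.5% of those with an Ifit1 UMI (26 of 46 cells) had a UMI of another such gene, against 8.69% of those without. In APOE3 these were 42.9% (12 of 28 cells) and 6.68%, and in APOE4 20% (4 of 20 cells) and 6.05%. Of the 6 genes, Ifit1 was the highest in APOE2 and Isg15 the lowest, at 17.98% (64 of 356 cells) against 4.85%. The lowest in APOE3 was Ifit3, at 11.5% against 5.27%, and in APOE4 Isg15, at 7.94% against 2.88%.

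Ifitm3 was instead broad. At 2000 UMIs a UMI of it was found in 42.7% of APOE2, 35.7% of APOE3 and 31.4% of APOE4 cells of smooth muscle (81.6%, 87.9% and 83.9% unthinned). In APOE2 erythroid-like cells it was found in 3.03%. The median depths of smooth muscle and erythroid-like cells in APOE2 were 12629 and 6201 UMIs. Bst2 was found in 11.4% of APOE2, 9.11% of APOE3 and 8.32% of APOE4 cells and Ifi27l2a in 5.75% of APOE2, 3.23% of APOE3 and 2.64% of APOE4 cells of smooth muscle, against 1.52% and 0% of APOE2 erythroid-like cells. The share of cells with Ifi27l2a was thus higher in APOE2, as its CPM was.

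Other genes of the pathway were counted from lists of ligands, receptors, signal transducers, sensors, regulatory factors, negative regulators, antiviral effectors and interferon γ responsive genes, 89 in all. In smooth muscle, 66 had at least 50 UMIs from APOE2 to APOE3, of which 10 were at least 2-fold higher and 0 lower, with a median log2 ratio of 0.21, where 5.01% and 0.797% of all genes tested were. Of the antiviral effectors 7 of 23 and of the interferon γ responsive genes 3 of 14 were higher, and none of the receptors was, with a receptor median of -0.12. From APOE4 to APOE3, 4 of 64 were higher and 1 lower (median -0.16), beside 3.62% and 0.754% of all genes, and from APOE4 to APOE2 4 of 67 were higher and 15 lower (median -0.28), beside 3.5% and 5.42% of all genes. The largest ratios from APOE2 to APOE3 were those of Ifitm1 (3.505, interval 2.63 to 4.54), a membrane relative of Ifitm3, and Ifi204 (2.52, interval 1.80 to 3.32), a DNA sensor of the Ifi200 family. Ifitm1 is also among the 10 leading genes of the neutrophil-like cluster, whose summed markers stood in smooth muscle at 69.2, 1.66 and 0.960 CPM in APOE2, APOE3 and APOE4, and their part in its ratio was not tested. Macrophage markers were also higher in APOE2 than in APOE3 in this class. The part of both kinds of marker in the Ifi204 ratio and in the counts of pathway genes was not tested. The lowest ratios from APOE2 to APOE3 were those of Cgas (-0.61, interval -1.06 to -0.16), the sensor of DNA in the cytosol, and Igtp (-0.47, interval -0.71 to -0.24), an immunity-related GTPase. In the APOE4 library, Cxcl10, a chemokine for T lymphocytes, and Irf1, a regulatory factor that interferon γ induces, were higher than in APOE3, with log2 ratios of 1.52 (1.27 to 1.77) and 1.32 (1.28 to 1.35), while Usp18, which removes Isg15 from proteins (-1.27, interval -1.73 to -0.81), and Ifit3b (-0.99, interval -1.39 to -0.60) were lower. Against APOE2, the feedback inhibitors Socs1 (1.69, interval 1.59 to 1.78) and Socs3 (1.54, interval 1.50 to 1.57) were higher in APOE4, and Ifi204 (-4.05, interval -5.52 to -2.89) and Ifitm1 (-2.91, interval -3.76 to -2.17) were lower.

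No interferon ligand had 50 UMIs in smooth muscle. In T lymphocyte-like cells 1 ligand did, with a log2 ratio of -1.83 from APOE4 to APOE2, where 3.42% of genes were 2-fold lower. In macrophage-like cells Ifnb1, the interferon β gene, was at 27.9 CPM for APOE2, 67.8 for APOE3 and 37.1 for APOE4, with a log2 ratio of -1.28 (-1.71 to -0.84) from APOE2 to APOE3. These came from 115, 76 and 53 UMIs. Ifnb1 was lowest in the APOE2 library, where Rsad2 and Ifi27l2a were highest. Gbp5 (1.49, interval 0.55 to 2.59) and Socs3 (1.33, interval 1.006 to 1.66) were the highest from APOE2 to APOE3 and Ciita (-1.14, interval -1.71 to -0.55), the activator of class II antigen presentation genes, was the other low one. From APOE4 to APOE3, Socs3 (1.15, interval 0.79 to 1.52) and the kinase gene Jak2 (1.13, interval 0.42 to 1.88) were highest, and Ifit2 (-1.54, interval -2.09 to -1.01) and the receptor gene Ifnar1 (-0.93, interval -1.47 to -0.39) lowest. In fibroblast-like cells, Ifitm1 (3.85, interval 2.25 to 6.15) and Oas1a (1.16, interval 0.10 to 2.39) were highest and Ifit3b (-0.68, interval -1.10 to -0.26) and Cmpk2 (-0.68, interval -1.04 to -0.32) lowest from APOE2 to APOE3. Ifitm1 is a leading gene of the neutrophil-like cluster. Of fibroblast-like cells, 801 of 1437 in APOE2 and 582 of 737 in APOE3 held no macrophage, neutrophil or erythroid marker UMI. The part of such markers in the Ifitm1 ratio was not tested. From APOE4 to APOE3, Socs3 (0.92, interval 0.80 to 1.04) and Irf1 (0.77, interval 0.69 to 0.86) were highest there and Ifi204 (-0.78, interval -1.17 to -0.39) and Ifit3b (-0.64, interval -1.13 to -0.17) lowest. Socs3 and Irf1 are also among the 10 leading genes of the smooth muscle-like cluster R1, beside the immediate early and heat shock genes Atf3, Junb, Zfp36, Dnajb1 and Hspa1a. R1 held 1203 of 9499 smooth muscle cells in APOE2, 1008 of 5803 in APOE3 and 1590 of 6631 in APOE4, and the part of these genes in the Socs3 and Irf1 ratios was not tested. In endothelial-like cells, Tmem173, the adaptor that signals from Cgas, had 2.32 (0.90 to 4.24) and Trim30a 2.23 (0.80 to 4.15), while the GTPase gene Iigp1 had -0.65 (-1.25 to -0.03), from APOE2 to APOE3. From APOE4 to APOE3, Irf1 had 1.67 (0.90 to 2.47) and the immunoproteasome gene Psmb8 1.44 (0.80 to 2.09).

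Over 23 class and library sums with at least 10 cells, which share libraries and cell types, the genes outside the interferon lists whose pattern was most like the mean of the members were Ampd3, Stard9, Abca1, Cflar and Slc7a7, with Spearman correlations of 0.89, 0.89, 0.89, 0.89 and 0.87 among 9588 genes compared. Of the interferon lists, Cxcl10 had 0.91 and Rtp4 0.86. Among the members, Irf7 and Oasl2 were the most alike pair, at 0.81, followed by Isg15 and Rsad2 at 0.79, and Rsad2 and Bst2 the least, at 0.08. These correlations describe the sums only.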

How the data were processed

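RNA of single aortic cells was counted in 3 droplet libraries, 1 for each genotype, grouped by the labels. The authors aligned reads with Cell Ranger 7.0.1 to mm10 and deposited UMI counts per gene and barcode, not normalized; gene and barcode lists gave names only. Mx1 and Mx2 were not analysed here. The 9 members and all lists were chosen with earlier results of these data known.

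Cells with at least 200 genes and under 20% mitochondrial UMIs were kept. Libraries were normalized with sctransform 0.4.2, integrated by canonical correlation over 3000 features without 45 interferon genes, and clustered over 30 components by the Louvain method at resolution 0.8 into 26 clusters (Seurat 5.3.0, R 4.3.3, Matrix 1.6.5). A cluster was named from at least 3 raised markers of 1 of 19 lists, unless its leading genes or depth went against it; clusters that kept smooth muscle markers formed the smooth muscle class. Scrublet in scanpy 1.11.5 called 1, 0 and 2 cells, so doublets were kept, and an alternative removed the 6% with the highest scores. Python 3.11.15, numpy 2.4.6, scipy 1.17.1 and pandas 2.3.3 were used.

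UMIs were summed over a class in each library and divided by the class total, as CPM with exact Poisson 95% intervals. Log2 ratios have exact conditional binomial intervals, with 0.5 UMIs added to each count for medians and 2-fold calls, over genes with at least 50 UMIs in both libraries together and classes with at least 30 cells in each. Shares have Clopper-Pearson intervals, after thinning cells to 2000 UMIs (5000 for co-occurrence). All intervals cover counting error only. No p-value was computed. Where no UMI was found, the limit is 3 counts. The ratio and intervals were tested on simulated counts. These were Poisson draws from class sums, as the intervals assume, so the clumping of UMIs in single cells was not covered.

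Other genes named were up to 2 highest and 2 lowest of the pathway lists with an interval that excludes 0. They were taken in smooth muscle, fibroblast-like, macrophage-like and endothelial-like cells only. They are given for the contrasts with APOE3 and, in smooth muscle only, for APOE4 to APOE2. The 5 genes most like the members over class sums were named too. Alternatives changed the cell filters, doublet scores, clustering, class rule, scaling and thinning. Leaving out clusters R3 and R21, R10, R18 and R23, or R15, cells with blood markers, and the cell with most interferon UMIs was added after the data were seen.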

Additional observations from a re-analysis of the deposited data

How the results depend on the processing

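The median log2 ratio over the 9 genes moved under some settings. Over all settings it lay on both sides of 0 for APOE4 to APOE3 in fibroblast-like (-0.014 to 0.14) and macrophage-like cells (-0.17 to 0.16) and for APOE4 to APOE2 in endothelial-like cells (-0.38 to 0.23). In smooth muscle, APOE2 to APOE3 was 0.74 in the main setting and lay between 0.56 and 0.90 over all settings. It was 0.90 at Louvain resolution 0.4 and 0.87 without the cell with most interferon UMIs. At resolution 0.4 the smooth muscle class held other cells. It took in a cluster of 640 cells with 10 endothelial markers raised and another of 357 cells with 6 erythroid markers raised. APOE4 to APOE3 there was -0.052 with scaling by the median gene and -0.25 in the named clusters only. APOE4 to APOE2 there was -0.83 with each cell's CPM averaged and -0.79 in the named clusters only. In fibroblast-like cells, APOE2 to APOE3 was 0.35 at resolution 0.4, 0.25 with each cell's CPM averaged, 0.29 without cluster R15 and 0.28 in cells without blood marker UMIs, and APOE4 to APOE2 under the same settings was -0.38, -0.36, -0.30 and -0.34. In macrophage-like cells, APOE4 to APOE2 was -0.58 with each cell's CPM averaged. The log2 ratio of the interferon-high share in fibroblast-like cells, APOE4 to APOE2, was -0.55 without thinning, against 0.34 with it. The cause was not tested for any of these. Of single genes, 17 ratios past 2-fold with an interval that excludes 0 kept their direction in all 261 of their 261 alternative values. They were picked for their size and the settings share cells, so the count of directions is weak evidence. Their size was not always kept. Ifi27l2a from APOE2 to APOE3 in smooth muscle fell to 0.44, and Ifit3 from APOE4 to APOE3 in macrophage-like cells came to -0.25. The count of directions covers smooth muscle, fibroblast-like, macrophage-like and endothelial-like cells only. Ratios in neutrophil-like and lymphocyte-like cells were not part of it. No paired analysis was possible because there was 1 library for each genotype. Counts limit the precision most in endothelial-like, neutrophil-like and lymphocyte-like cells, where a member often had under 50 UMIs.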
